A study of Rattus norvegicus with 27 samples.

Results

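The genes described here act in WNT signalling and were chosen by name: the ligand Wnt5a, the receptor Fzd1, the secreted antagonists Sfrp1, Sfrp2 and Dkk3, the transducer Ctnnb1, the feedback inhibitor Axin2 and the DNA-binding factors Tcf7, Lef1 and Tcf7l2. All their probe sets on the array were taken, 24 of the 31042 tested and 10 of the 14217 genes named. The samples were acinar cells cut by laser from sections of the parotid, the serous salivary gland, of Sprague Dawley rats for which no treatment is given, with 3 arrays at each of 9 ages and 27 arrays in all. The study sorted the ages into 4 stages, E18, E20 and P0 (stage 1, 9 arrays), P2 and P5 (stage 2, 6 arrays), P9 and P15 (stage 3, 6 arrays) and P20 and P25 (stage 4, 6 arrays), where E and P are embryonic and postnatal days. The stage limits come from these arrays themselves, and a contrast of stages is therefore no independent evidence for them. The 3 arrays of an age came from separate litters per the methods, which do not say whether arrays of different ages shared a litter. No strain difference, allele or agent separates the ages. Divided heads were sectioned up to P5 but dissected glands from P9 on, so age and preparation cannot be told apart in any comparison across that limit.

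Levels are given on the log2 scale of the deposited values, where 1 unit is a 2-fold difference, and a level cannot be set against that of another probe set. Array medians lay between 5.91 and 6.13, and correlations between arrays of one age between 0.873 and 0.962. Of 12 acinar markers, all were higher in stage 4 than in stage 1. The mean level of the 12 per array lay between 12.61 and 12.97 in stage 4 and between 4.84 and 6.70 in stage 1. The paper reports several of these genes as rising over the same arrays. Their rise is therefore no independent check of the labelled cell type, and does not check it in stage 1. Markers of other tissues were also present. The mean of 9 skeletal muscle markers exceeded 10 on replicate 1 of E18, E20 and P0. It also did so on replicate 3 of P0, replicates 1 and 3 of P5 and replicate 3 of P9. Its highest value was 12.25, against 8.77 at most in stage 4. That of 8 cartilage and bone markers reached 10.33 in stage 1. The mean of 7 epidermis markers exceeded 10 on 4 arrays (replicate 1 of E18, E20 and P0, and replicate 2 of P5), that of 4 hair follicle markers lay between 5.88 and 10.42 at P2, P5 and P9 and at no more than 5.29 elsewhere, and that of 15 mesenchyme and fibroblast markers lay between 8.35 and 10.64 on all arrays.

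WNT ligands bind Frizzled receptors, and in the canonical branch this stops a destruction complex built on AXIN proteins from degrading beta-catenin, the product of Ctnnb1. Beta-catenin then enters the nucleus and acts with the TCF and LEF factors on target genes, of which Axin2 is one of the most widely used reporters. SFRP proteins bind WNT ligands outside the cell, and the pathway is known for its part in the branching of salivary glands and in keeping epithelial cells undifferentiated.

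The promoters of Tcf7 and Axin2 are shown because these genes had the largest changes among the 24 probe sets between stage 4 and stage 1, and because theirs were the only promoters among those of the 8 members in the RefSeq promoter table (build GRCr8) that held the letters CTTTGA, the core read by TCF and LEF factors, on either strand. Each window runs 5′ to 3′ from 250 bases before an annotated start site to 50 bases after it, and capitals mark CTTTGA. In Tcf7 (chr10:36954230-36954529, minus strand) the match began at position -4 relative to the start site. In Axin2 (chr10:94398535-94398834, plus strand) matches began at positions -232 and -132 relative to a start site that lies 5406 bases inside the annotated gene. The match in Tcf7 and the second match in Axin2 went on to the longer form CTTTGAT, which 3.63% of 33469 promoters of this length held, against 16.1% for CTTTGA, which overlaps it. A match of letters is a description and not a binding site.
Tcf7: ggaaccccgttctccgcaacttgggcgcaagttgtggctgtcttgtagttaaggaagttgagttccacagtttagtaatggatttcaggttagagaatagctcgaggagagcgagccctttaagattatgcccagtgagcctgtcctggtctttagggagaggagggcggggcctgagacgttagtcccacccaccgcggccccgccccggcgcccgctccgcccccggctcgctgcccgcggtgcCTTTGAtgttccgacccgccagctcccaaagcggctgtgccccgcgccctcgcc
Axin2: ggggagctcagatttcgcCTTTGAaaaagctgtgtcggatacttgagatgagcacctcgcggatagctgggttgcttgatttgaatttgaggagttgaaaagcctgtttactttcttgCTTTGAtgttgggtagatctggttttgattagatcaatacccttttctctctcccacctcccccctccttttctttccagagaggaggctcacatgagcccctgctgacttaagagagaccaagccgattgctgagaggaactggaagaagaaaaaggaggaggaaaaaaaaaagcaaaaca

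Between the ages, 9 of the 24 probe sets passed the F test over the 9 ages, and 24.5% of all probe sets did. The members that moved fell. In stage 4 against stage 1, 12 probe sets of 7 genes (Tcf7, Lef1, Axin2, Ctnnb1, Sfrp1, Sfrp2 and Dkk3) were lower and none was higher, where 17.8% of all probe sets were lower and 27.2% higher. The median change of the 24 was -0.72 log2 units, beside 0.19 over all probe sets. For 6 of the 24, every array of stage 4 lay below every array of stage 1, as for 5.46% of all probe sets. That median over all probe sets was 0.08 after quantile normalisation, and relative to its deposited value the change of Tcf7, for example, was -4.60 in place of -4.41. Directions of 22 of the 24 stayed the same under quantile normalisation and under centring of the arrays, and the exceptions, Tcf7l2 1378048_at and Dkk3 1397754_at, were not past the threshold. P25 against E18, the last against the first age, gave 10 lower member probe sets and none higher, with 13.4% of all lower. These are levels in bulk captures, in which fewer cells of a type and less RNA per cell cannot be told apart.

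**Figure D1:**
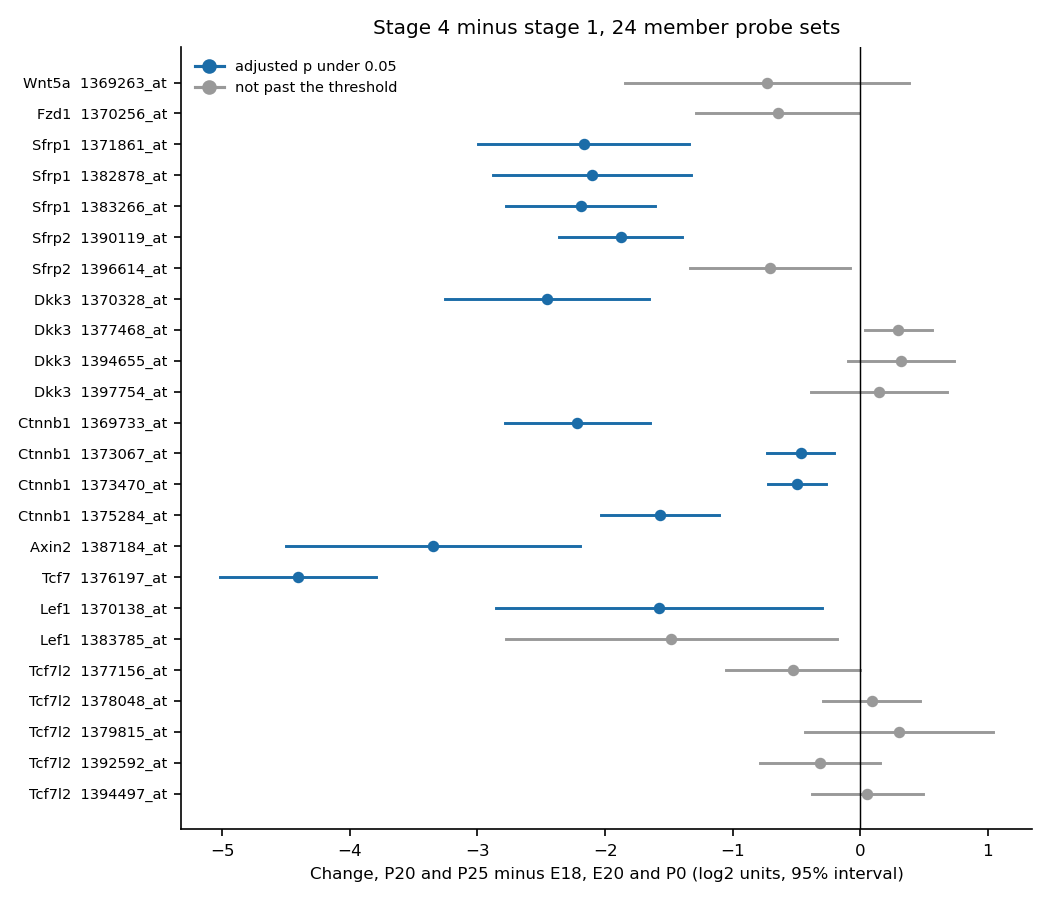
Change of each of the 24 member probe sets, P20 and P25 minus E18, E20 and P0, in log2 units with the 95% interval of the fit. Blue marks the 12 probe sets with an adjusted p under 0.05, all of them below 0, with Tcf7 at -4.41 and Axin2 at -3.35 farthest from it.

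**Figure D2:**
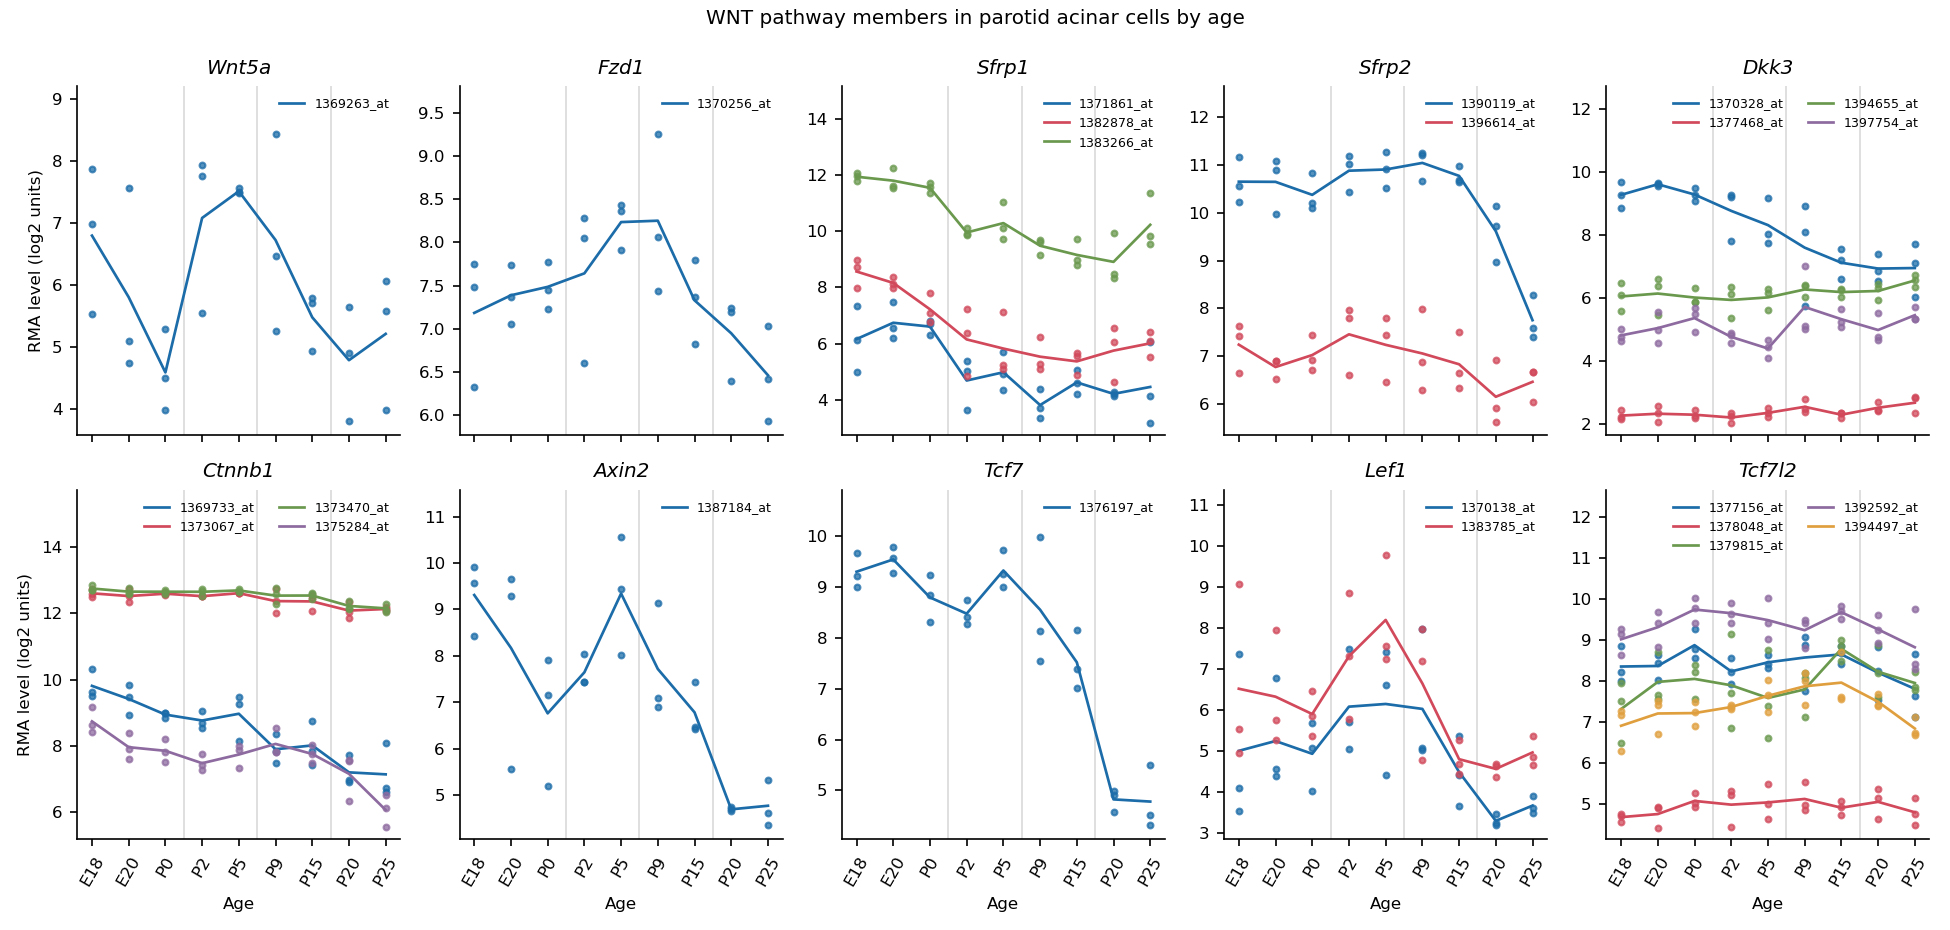
RMA level in log2 units (y axis) by age (x axis) for the 10 genes, 1 colour per probe set. Points are the 3 arrays of an age, lines join the age means and grey lines part the 4 stages; the Tcf7 line stands at 7.52 at P15 and 4.82 at P20.

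Wnt5a encodes a ligand that acts largely outside the beta-catenin branch, and Fzd1 a Frizzled receptor. Wnt5a (1369263_at) was highest on average at P5, with 7.56, 7.50 and 7.48, and lowest at P0, with 5.29, 4.51 and 3.99. At P2 it stood at 7.76, 7.93 and 5.55, and at P25 at 5.58, 3.99 and 6.07. The gene missed the threshold in the F test (adjusted p = 0.0547) and in every contrast of stages, stage 2 minus stage 1 included (1.56 ± 0.54, SE, adjusted p = 0.137). Fzd1 (1370256_at) stood between 5.93 and 7.24 (median 6.73) in stage 4 and between 6.83 and 9.26 (median 7.61) in stage 3, ranges that overlap. Its change of -1.09 ± 0.34 just passed the threshold (adjusted p = 0.0479), but it was lost in 20 of the 27 fits without 1 array and ranged from -1.29 to -0.83 over them. Against stage 1 it did not pass (-0.65 ± 0.31, adjusted p = 0.0890).

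Sfrp1, which encodes a secreted protein that binds WNT ligands, fell early and on all its 3 probe sets. On the brightest, 1383266_at, the arrays read 11.78, 11.97 and 12.07 at E18, 11.61, 11.52 and 12.27 at E20 and 11.56, 11.37 and 11.70 at P0. They read 9.86, 10.11 and 9.90 at P2 and 10.10, 9.73 and 11.04 at P5. No array of stage 2 reached the lowest of stage 1. Later values stayed in the lower range, from 8.78 to 9.72 in stage 3 and from 8.34 to 11.34 in stage 4, where replicate 3 of P25 was the highest. Stage 2 minus stage 1 was -1.64 ± 0.28 (SE, adjusted p = 0.00156), a 3.12-fold lower level. The other probe sets, 1371861_at and 1382878_at, gave -1.67 ± 0.40 (adjusted p = 0.0220) and -1.99 ± 0.37 (adjusted p = 0.00340). These 3 were the only member probe sets called between stage 2 and stage 1, where 1.33% of all probe sets were lower. With the levels of skeletal muscle, hair follicle and cartilage markers as covariates, or those of epidermis and hair follicle, none of the 3 passed. In the first case 1371861_at changed by -2.01, 1382878_at by -3.09 and 1383266_at by -2.60. The call of 1371861_at was also lost with the mesenchyme and fibroblast covariate (-1.10, adjusted p = 0.231) and without P2 replicate 3, P5 replicate 1 or P5 replicate 2 (from -1.86 to -1.41 over all fits without 1 array). Hair follicle markers rose in the same step, 3 of 4 genes being called higher. So did adipocyte (7 of 8), acinar (7 of 12) and myoepithelium markers (4 of 8), while 2 of 8 cartilage and bone markers were called lower. The part of all these markers in the result was not tested. Stage 4 minus stage 1 was -2.17 on 1371861_at, -2.10 on 1382878_at and -2.19 on 1383266_at, with adjusted p-values of 0.00023, 0.000165 and 3.88e-06. Between stage 4 and stage 3 the changes were, in that order, 0.12, 0.43 and 0.25, none past the threshold. No single step between adjacent ages passed either, P2 minus P0 included (-1.59 ± 0.44 on 1383266_at, adjusted p = 0.199).

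Sfrp2, a close relative of Sfrp1, fell late and on 1 of its 2 probe sets. On 1390119_at the arrays lay between 9.97 and 11.18 in stage 1, between 10.43 and 11.28 in stage 2 and between 10.65 and 11.26 in stage 3. They then read 9.73, 10.14 and 8.97 at P20 and 7.39, 8.27 and 7.58 at P25, so every array of stage 4 lay below every array of stage 3. The change was -2.23 ± 0.25 against stage 3 (SE, adjusted p = 7.32e-06), a 4.69-fold lower level, and -1.88 ± 0.23 against stage 1 (adjusted p = 2.41e-06). Sfrp2 was also the only member called between P25 and P20 (-1.87 ± 0.36, adjusted p = 0.0165), a step in which 0.689% of all probe sets were lower. That call was lost without replicate 1 or replicate 2 of P20 (changes from -2.19 to -1.61 over all such fits). It was also lost with array weights and with only the ages compared in the fit (adjusted p up to 0.397).

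The other Sfrp2 probe set, 1396614_at, was not called in any comparison of ages or stages. It read 5.62, 5.90 and 6.91 at P20 and 6.04, 6.66 and 6.67 at P25, against 6.87, 7.99 and 6.29 at P9 and 6.33, 6.65 and 7.50 at P15. Stage 1 arrays lay between 6.51 and 7.63, so all ranges overlap. Its changes were -0.64 ± 0.33 against stage 3 (adjusted p = 0.240) and -0.71 ± 0.30 against stage 1 (adjusted p = 0.0613), in the same direction as the first probe set but short of the threshold. The second change passed it in 4 of 27 fits without 1 array (E18 replicate 3, P2 replicate 3, P9 replicate 2 or P20 replicate 3, adjusted p down to 0.0261), with the sex covariate and with only the ages compared in the fit. Its P25 minus P20 difference was 0.31, beside -1.87 for 1390119_at. The change of 1390119_at was more negative by 1.59 log2 units against stage 3 and by 1.17 against stage 1. The pair was singled out for this gap, which is given as a description with no test.

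The mesenchyme and fibroblast markers moved in the same stages as Sfrp2: 8 of 15 were lower in stage 4 than in stage 3 and 10 of 15 lower than in stage 1, and their mean per array lay between 8.35 and 9.06 in stage 4, against 9.30 to 9.78 in stage 3 and 9.09 to 10.24 in stage 1. Over the 27 arrays r with that mean was 0.75 for 1390119_at, 0.749 for Ctnnb1 1373470_at and 0.701 for both Tcf7 and Axin2. Within ages, with the age means taken out, it was 0.246, 0.266, -0.229 and 0.333. With the acinar marker mean, r of 1390119_at was -0.612, and -0.632 within ages. For Ctnnb1 1373470_at, Tcf7 and Axin2 it was -0.82, -0.88 and -0.708, and -0.407, 0.01 and -0.13 within ages. The part of these markers was not tested. With the mesenchyme and fibroblast marker mean as a covariate, 1390119_at passed against stage 3 (-1.99, adjusted p = 0.00221) and against stage 1 (-1.59, adjusted p = 0.00419). The covariate's slope rests on differences within ages, so the fit does not test a fall shared over the ages.

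Dkk3 encodes a divergent member of the Dickkopf family, whose classic members block WNT co-receptors. On 1370328_at the arrays of stage 4 read 6.53, 7.40, 6.86, 7.71, 7.10 and 6.03, and those of stage 1 read 9.69, 9.28, 8.85, 9.55, 9.62, 9.67, 9.27, 9.50 and 9.09. The groups did not overlap, and the change was -2.45 ± 0.39 (SE, adjusted p = 4.46e-05), a 5.47-fold lower level. The age mean was 9.28 at E18, 9.61 at E20, 8.31 at P5, 7.12 at P15 and 6.95 at P25, with no single step called. The other 3 probe sets were 1394655_at, at 5.35 to 6.74 over all arrays, 1397754_at, at 4.08 to 7.02, and 1377468_at, at 2.01 to 2.83 and below the array median on all 27. Their changes of 0.32, 0.15 and 0.30 in stage 4 against stage 1 did not pass the threshold. The change of 1370328_at differed from that of 1394655_at, the brightest of these, by -2.77, a description with no test because the pair was chosen for its calls. With the mesenchyme and fibroblast marker mean as a covariate the change of 1370328_at was -1.62 (adjusted p = 0.0490).

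Ctnnb1 encodes beta-catenin, which joins the pathway to cell adhesion. All 4 of its probe sets were lower in stage 4 than in stage 1, by different amounts. The probe sets 1373067_at and 1373470_at, with levels near 12 to 13 at every age, changed little: 1373470_at lay between 12.05 and 12.38 in stage 4 and between 12.58 and 12.84 in stage 1. Their changes were -0.47 ± 0.13 and -0.50 ± 0.11 (SE, adjusted p = 0.00573 and 0.00113), about 1.4-fold. Larger changes came from 1369733_at, with 6.61 to 8.09 in stage 4 and 8.83 to 10.32 in stage 1, and from 1375284_at, with 5.56 to 7.59 in stage 4 and 7.52 to 9.17 in stage 1. They were -2.22 ± 0.27 (adjusted p = 2.27e-06) and -1.57 ± 0.22 (adjusted p = 1.26e-05). Only 1375284_at was also called lower in stage 4 than in stage 3 (-1.29 ± 0.24, adjusted p = 0.00171), where the mean was 6.07 at P25, 7.16 at P20 and 7.76 at P15. In that comparison 1369733_at changed by -0.78 (adjusted p = 0.109), 1373470_at by -0.35 (adjusted p = 0.0742) and 1373067_at by -0.26 (adjusted p = 0.259). These changes had the same direction but missed the threshold. The call of 1373067_at against stage 1 was lost under quantile normalisation and under each of 3 sets of marker covariates. With the mesenchyme and fibroblast covariate the calls of 1373470_at against stage 1 (adjusted p = 0.0955) and of 1375284_at against stage 3 (adjusted p = 0.0920) were lost as well.

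Axin2, which encodes a scaffold of the destruction complex and is itself induced by the pathway, had 1 probe set, 1387184_at. The arrays read 9.57, 9.92 and 8.44 at E18, 9.30, 9.66 and 5.56 at E20 and 7.92, 5.20 and 7.16 at P0. They read 7.45, 8.04 and 7.45 at P2, 9.44, 10.56 and 8.03 at P5, 6.90, 9.15 and 7.10 at P9 and 6.47, 6.43 and 7.45 at P15. At P20 they read 4.65, 4.73 and 4.69, and at P25 5.33, 4.36 and 4.62. Replicates differed by over 2 log2 units at E20, P0, P5 and P9, while those of stage 4 lay within 1 unit. The means ranked P5 (9.34), E18 (9.31), E20 (8.17), P9 (7.72), P2 (7.65), P15 (6.78), P0 (6.76), P25 (4.77) and P20 (4.69), and no neighbours in this order apart from P0 and P25 differed by more than the sum of their SDs. The array values of P0 and P25 themselves overlapped, with 5.20 the lowest at P0 and 5.33 the highest at P25.

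Axin2 was lower in stage 4 than in stage 3, with all arrays of stage 4 below those of stage 3 (-2.52 ± 0.61, SE, adjusted p = 0.0124). Against stage 1 the change was -3.35 ± 0.56 (adjusted p = 8.19e-05), a 10.2-fold lower level, and P25 minus E18 gave -4.54 ± 0.86 (adjusted p = 0.000614). These calls held in each of the 27 fits without 1 array. With the mesenchyme and fibroblast marker mean as a covariate, stage 4 minus stage 3 was -1.69 (adjusted p = 0.284) and stage 4 minus stage 1 was -2.36 (adjusted p = 0.0530), neither past the threshold, while P25 minus E18 passed (-3.41, adjusted p = 0.0419).

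Tcf7 encodes TCF-1, a DNA-binding partner of beta-catenin that is best known from T lymphocytes. It had the largest change of the 24 probe sets in stage 4 against stage 1, while in P25 against E18 its change of -4.52 stood beside -4.54 for Axin2. The arrays of its probe set 1376197_at read 9.01, 9.22 and 9.67 at E18, 9.56, 9.79 and 9.27 at E20, 9.24, 8.84 and 8.30 at P0 and 8.26, 8.74 and 8.42 at P2. They read 9.73, 9.24 and 8.99 at P5, 9.98, 8.12 and 7.55 at P9 and 8.15, 7.01 and 7.40 at P15. At P20 they read 4.90, 5.00 and 4.57, and at P25 4.33, 4.51 and 5.50. Every array of stage 4 thus lay below every array of the earlier stages, and below its own array's median. By age mean the order was E20 (9.54), P5 (9.32), E18 (9.30), P0 (8.79), P9 (8.55), P2 (8.47), P15 (7.52), P20 (4.82) and P25 (4.78), and neighbours differed by more than the sum of their SDs only at P2 and P15 and at P15 and P20.

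The Tcf7 level was 21.2-fold lower in stage 4 than in stage 1 (-4.41 ± 0.29, SE, adjusted p = 3.31e-10) and 9.4-fold lower than in stage 3 (-3.23 ± 0.32, adjusted p = 1.12e-06). Stage 3 minus stage 2 did not pass (-0.86 ± 0.32, adjusted p = 0.208). P20 minus P15 was -2.69 ± 0.45 (adjusted p = 0.00438), the only call among the members in that step, in which 0.11% of all probe sets were lower. It was lost without replicate 1 of P15 (changes from -2.95 to -2.38 over all such fits, adjusted p up to 0.0528). Of 11 T lymphocyte markers none was lower and 4 were higher in stage 4 than in stage 1. Their mean per array lay between 4.65 and 4.85 in stage 4 and between 3.81 and 4.37 in stage 1, with Cd3g (1.56, adjusted p = 0.00116) and Cd3d (1.36, adjusted p = 0.0190) among those higher. Over all arrays the defining marker Cd3e stood between 2.91 and 4.06, Cd3g between 2.61 and 6.19, and Ptprc, the highest of the list, between 4.13 and 8.76. With the mesenchyme and fibroblast marker mean as a covariate, Tcf7 changed by -4.75 against stage 1 (adjusted p = 4.73e-07) and by -3.52 against stage 3 (adjusted p = 6.32e-05). Tcf7 correlated with that mean at r = 0.701 over the 27 arrays and at -0.229 within ages. The covariate's slope rests on differences within ages, so the fit does not test a fall shared over the ages.

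Lef1 encodes LEF-1, the factor closest to TCF-1, which is known from hair follicles and mesenchyme as well. Its values spread widely among replicates. On 1383785_at the arrays read 9.06, 4.95 and 5.53 at E18, 7.95, 5.27 and 5.75 at E20 and 6.47, 5.85 and 5.37 at P0. They read 7.30, 8.85 and 5.77 at P2, 9.77, 7.55 and 7.25 at P5 and 7.96, 4.77 and 7.20 at P9, and then lay between 4.45 and 5.27 at P15 and between 4.37 and 5.37 in stage 4. In stage 1 the highest array of each age was thus replicate 1, the one high in epidermis markers (11.81, 11.74 and 11.08 on these arrays, 4.73 to 6.13 on the other 6 of stage 1). The same 3 arrays had the highest skeletal muscle marker means of stage 1 (12.21, 12.22 and 11.48, against 5.94 to 10.42 on the other 6). P5 replicate 2, also high in epidermis markers (12.15), did not follow, with 7.55 against 9.77 on P5 replicate 1 (epidermis mean 7.47). From P2 to P9 hair follicle markers were raised. The other probe set, 1370138_at, lay between 3.18 and 3.90 in stage 4 and between 3.54 and 7.36 in stage 1. On P5 replicate 2 it read 4.42, the lowest of stage 2. Stage 4 minus stage 1 was -1.48 ± 0.62 on 1383785_at (SE, adjusted p = 0.0577) and -1.58 ± 0.62 on 1370138_at (adjusted p = 0.0421). The call on 1370138_at was lost in 5 other settings, namely array weights (-1.39), muscle, hair follicle and cartilage covariates (-0.51), the mesenchyme and fibroblast covariate (-1.42), epidermis and hair follicle covariates (-0.45) and without the 4 arrays high in epidermis markers (-0.80), and in 10 of 27 fits without 1 array (from -1.82 to -1.18). The 2 probe sets' changes against stage 1 differed by -0.09. Over the 27 arrays, 1383785_at correlated with the epidermis marker mean at r = 0.63 and with the hair follicle marker mean at r = 0.605. Within ages, with the age means taken out, these were 0.546 and 0.214. With the skeletal muscle marker mean r was 0.568, and 0.528 within ages. With the T lymphocyte marker mean it was -0.604, and -0.831 within ages. The part of these markers in the result was not tested.

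**Figure D3:**
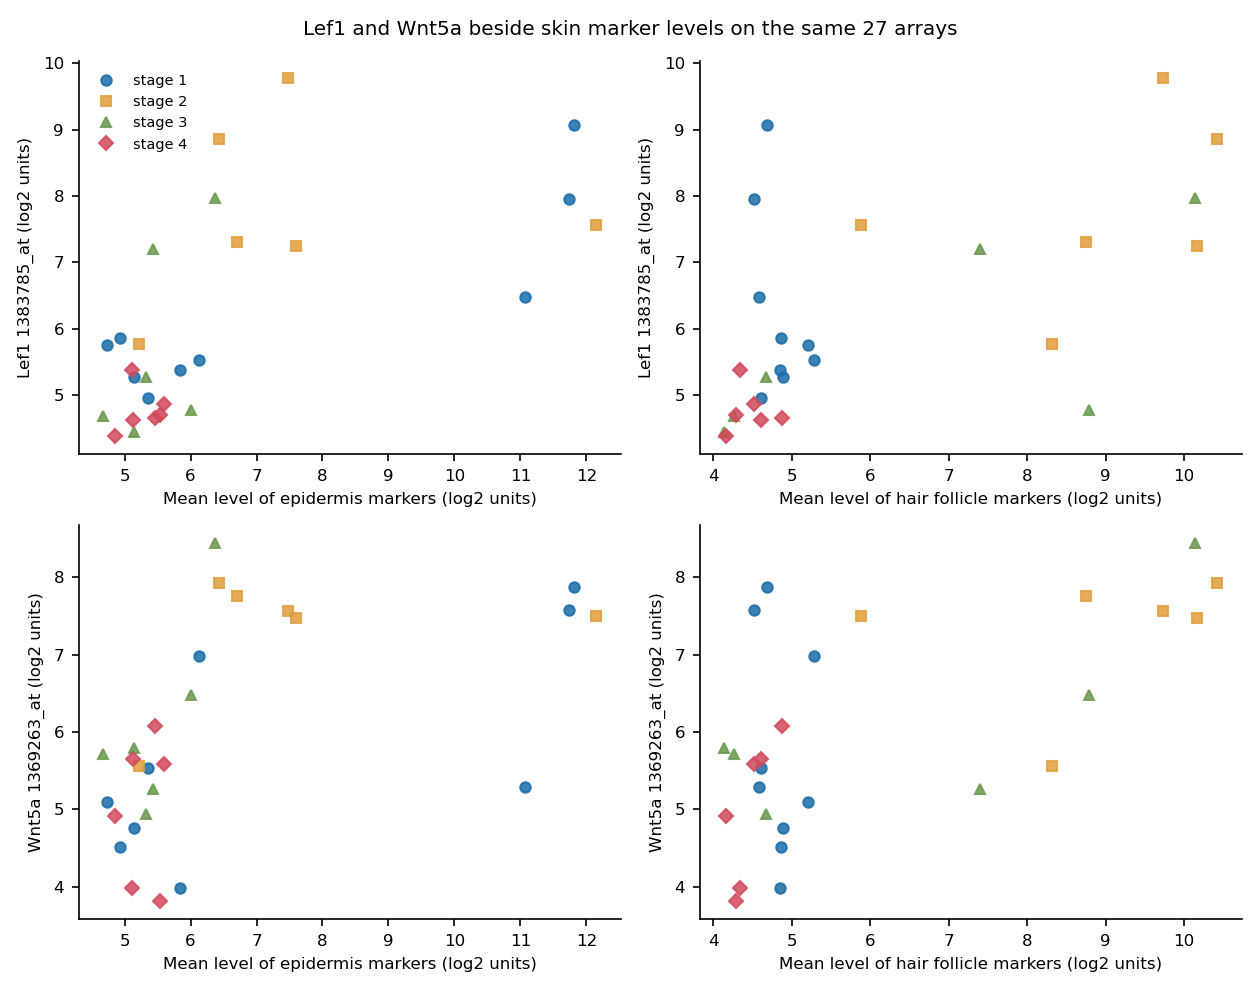
Level of Lef1 1383785_at (upper row) and Wnt5a 1369263_at (lower row) against the mean level of epidermis (left) and hair follicle markers (right), all in log2 units, 1 point per array and 1 symbol per stage. Lef1 lay between 4.37 and 5.37 on the stage 4 arrays and reached 9.06 on the stage 1 array with an epidermis level of 11.81.

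Wnt5a shared this pattern over the arrays. Its r was 0.538 with the epidermis marker mean and 0.629 with the hair follicle marker mean, and 0.725 with Lef1, the highest among the pairs of members outside those with Tcf7. Within ages the last value was 0.557. At E18 and E20 its highest arrays, 7.87 and 7.57, were again replicate 1.

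Tcf7l2 encodes TCF-4, the TCF factor of many epithelia. None of its 5 probe sets passed the threshold between stage 4 and stage 1. Their changes ran from -0.52 on 1377156_at to 0.31 on 1379815_at, with 95% intervals that reach no lower than -1.05 and no higher than 1.04. On 1392592_at the arrays lay between 8.31 and 9.76 in stage 4 and between 8.64 and 10.02 in stage 1, and 1378048_at was below the array median on all 27 arrays. One probe set, 1394497_at, was lower in stage 4 than in stage 3 (6.69 to 7.68 against 7.42 to 8.71, change -0.75 ± 0.23, adjusted p = 0.0474). That call was lost in 18 of the 27 fits without 1 array (from -0.86 to -0.56) and with most other settings. The 4 other probe sets changed by -0.60 to -0.09 in that comparison, none past the threshold.

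The calls fell in different steps. Between stage 4 and stage 3, 6 of the 24 probe sets were lower, those of Tcf7, Axin2 and Fzd1, 1 of 4 of Ctnnb1, 1 of 2 of Sfrp2 and 1 of 5 of Tcf7l2, and none was higher, where 4.27% of all probe sets were lower. Between stage 3 and stage 2 none was called, and the smallest adjusted p was 0.114. Of all probe sets 0.76% passed the adjusted threshold there in either direction. With limma's unadjusted p under 0.05 there were 6 of the 24, beside 15.5% of all probe sets. Of the 2 SFRP genes, Sfrp1 was lower in stage 2 and gave no call between stage 4 and stage 3 (0.25 ± 0.31 on 1383266_at, 95% interval -0.39 to 0.89), while Sfrp2 1390119_at gave 0.34 ± 0.23 in stage 2 against stage 1 (adjusted p = 0.579) and fell in stage 4.

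**Figure D4:**
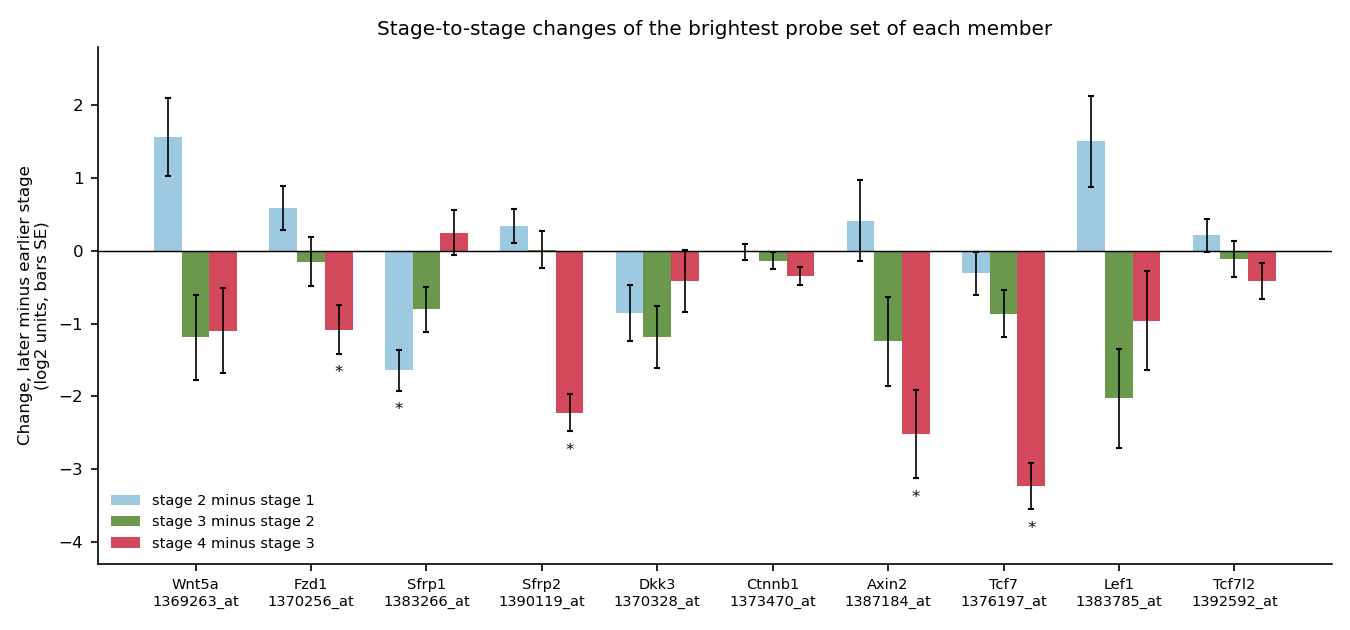
Change between consecutive stages, later minus earlier, in log2 units with the SE of the fit, for the probe set of highest mean of each gene. Asterisks mark adjusted p under 0.05: Sfrp1 at -1.64 in stage 2 minus stage 1, and Fzd1, Sfrp2, Axin2 and Tcf7 at -1.09, -2.23, -2.52 and -3.23 in stage 4 minus stage 3.

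The members were set beside each other over the 27 arrays, which share the course of age, by the probe set with the widest range of age means of each gene. Tcf7 correlated with Axin2 at r = 0.771, with Sfrp2 at 0.742 and with Dkk3 at 0.723. Within ages the values were -0.006, -0.005 and 0.397. Tcf7l2 (1379815_at) had an r of 0.045 with Sfrp2 and negative values with the rest, the lowest being -0.519 with Lef1. Over all named genes, those most like Tcf7 were Arxes1, Tspan3, Fstl1, Mall and Sfpq (r = 0.92 over 27 arrays), of which Arxes1 changed by -5.14 and Mall by -4.19 in stage 4 against stage 1. Those most like Axin2 were Filip1l, Abcc3, Ajuba, Crym and Col12a1 (0.828 to 0.783). Those most like Lef1 were Cldn1, a tight junction protein, Dsc1 and Dsg1, desmosomal cadherins of the epidermis, Sfn and Aqp3 (0.897 to 0.866).

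Other genes of the pathway were taken from 9 lists with 115 genes, of which 89 were measured. In stage 4 against stage 1, 31 of the 89 were lower and 14 higher, and their median change was -0.21, beside 0.19 over all probe sets. The shares over all probe sets, 17.8% lower and 27.2% higher, stand beside these counts. The measures are unlike, since each gene was counted only by its probe set of highest mean, while the shares include dim and unnamed probe sets. Differences between lists were not tested. Of 12 WNT ligands 5 were higher and 1 was lower, and of 10 receptors and co-receptors 2 were higher and 5 lower. Of 6 R-spondins and their receptors 4 were lower, and of 16 genes of the destruction complex and cytoplasmic transducers 6 were lower and 1 higher. The list of 8 secreted antagonists had 4 lower and 1 higher, and it included Kremen1, which is a receptor and was among those lower. Of 13 nuclear partners 3 were lower, of 13 target genes 5 were lower and 4 higher, and of 9 planar cell polarity genes 2 were lower and 1 higher. In the other steps few were called, 6 lower and 2 higher in stage 4 against stage 3, 1 lower in stage 3 against stage 2, and 1 in each direction in stage 2 against stage 1.

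**Figure D5:**
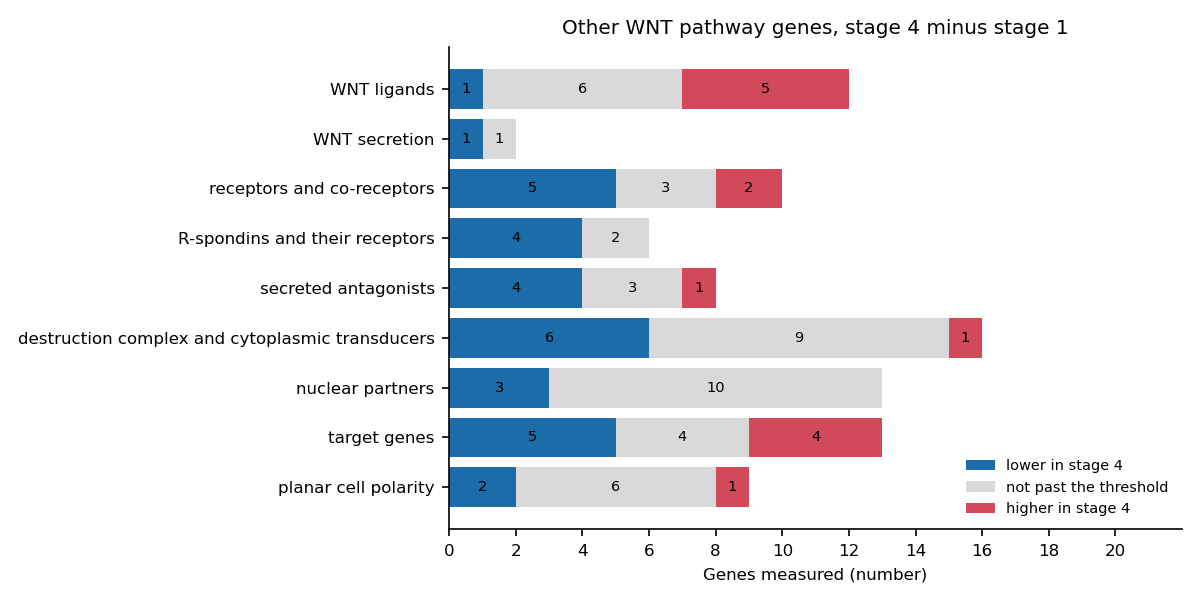
Number of measured genes in each of 8 lists of other WNT pathway genes, and in the list of 2 WNT secretion genes, that were lower (blue), not past the threshold (grey) or higher (red) in stage 4 than in stage 1. The WNT ligands had 5 of 12 higher, and the R-spondins and their receptors 4 of 6 lower.

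Among the ligands whose arrays did not overlap, Wnt9a stood at 6.72 to 7.81 in stage 4 and 5.43 to 6.45 in stage 1 (1.14 ± 0.19, SE, adjusted p = 6.59e-05). Wnt2 stood at 4.83 to 6.09 in stage 4 and 3.70 to 4.74 in stage 1 (1.02 ± 0.18, adjusted p = 0.000125), higher on both its probe sets. Lgr4, an R-spondin receptor, stood at 4.35 to 5.09 in stage 4 and 5.32 to 7.70 in stage 1 (-1.23 ± 0.33, adjusted p = 0.00565), a call lost with the mesenchyme and fibroblast marker mean as a covariate (adjusted p = 0.0716). Kremen1, a receptor for Dickkopf proteins, stood at 3.51 to 3.96 in stage 4 and 5.13 to 7.71 in stage 1 (-2.41 ± 0.39, adjusted p = 6.08e-05). Inside the cell, Tnks2, a tankyrase that marks AXIN proteins for degradation, fell by 1.18 (adjusted p = 1.15e-06), and Ctnnbip1, an inhibitor that keeps beta-catenin from TCF factors, fell by 1.49 (adjusted p = 7.11e-06). Both kept 1 direction on all their called probe sets, 3 of 4 for Tnks2 and 3 of 3 for Ctnnbip1.

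Target genes moved both ways. Ccnd1, which encodes cyclin D1 and drives entry into the cell cycle, stood at 9.02 to 10.08 in stage 4 and 10.88 to 12.16 in stage 1 (-1.92 ± 0.18, SE, adjusted p = 7.69e-08), on 3 of 3 probe sets. Ephb3, an ephrin receptor, stood at 11.30 to 11.89 in stage 4 and 12.90 to 13.75 in stage 1 (-1.69 ± 0.16, adjusted p = 6.56e-08). Ccn5, a secreted matricellular protein, was higher, at 2.86 to 6.51 in stage 4 and 2.03 to 2.61 in stage 1 (2.15 ± 0.40, adjusted p = 0.000245). Vangl2, a membrane protein of planar cell polarity, stood at 3.10 to 4.12 in stage 4 and 4.15 to 8.11 in stage 1 (-2.37 ± 0.37, adjusted p = 3.74e-05) on the dimmer of its 2 probe sets. The brighter one, by which the gene was counted, gave -2.34 ± 0.38.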

How the data were processed

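The authors deposited log2 values from Affymetrix rat genome arrays, made by robust multi-array average (RMA), which corrects the background, normalises between arrays and summarises the probes of each probe set. Software versions are not given in the sources used here. RNA was amplified from 1.5 or 4.5 ng per the labels, which do not say which array had which amount. The amount could therefore not be tested and cannot be told apart from age. No further scaling was applied to these log2 values, and 57 array controls were left out. Of 31042 probe sets tested, 20826 had 1 gene symbol, 436 several and 9780 none, and 20758 of the first matched a RefSeq gene ID. Differences between ages and stages were fitted across all 27 arrays with a term for each age (limma 3.58.1, R 4.3.3), with 18 residual degrees of freedom, two-sided tests and Benjamini-Hochberg adjustment over all tested probe sets (threshold 0.05). The fit was tested on simulated data. Marker covariates were added beside the age terms, so their slopes rest on differences between arrays of an age. Such fits do not test a change that markers and members share over the ages. Differences between probe sets of 1 gene are given without a test, since these pairs were chosen with their values known. The number of arrays limits the precision.

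The members, gene lists and alternatives were chosen with earlier results of these data known. Arrays of an age come from separate litters per the methods. All member probe sets are named. From each pathway list, up to 3 genes per direction with the largest moderated t were named among those called with no overlap of arrays, and for the 3 members with the widest range of age means the 5 genes of highest correlation. In counts of genes a gene was represented by its probe set of highest mean, and among the named genes by the probe set the rule selected. There were 9 pathway lists and 11 marker lists, and not all marker lists are described. Some of those left out also moved with members. Over the 27 arrays the myoepithelium marker mean correlated with Sfrp2 1390119_at at r = 0.658 (0.476 within ages). With Ctnnb1 1373470_at it gave 0.513 (0.728 within ages). Of its 8 markers, 3 were lower and 4 higher in stage 4 than in stage 1, so this mean joins opposite changes. The endothelium marker mean correlated with Sfrp2 1390119_at at 0.543 (0.251 within ages). The part of these markers was not tested. Alternatives were quantile normalisation, median centring, a filter on dim probe sets, array weights, trend and robust moderation, a replicate block, marker or sex covariates, only the ages compared, one-way ANOVA, and each array left out; 2 more, on epidermis and hair follicle markers, were added after the data were seen.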

Additional observations from a re-analysis of the deposited data

How the results depend on the processing

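Member probe sets past the F test ranged from 8 to 12 over all alternatives, those called in stage 4 minus stage 1 from 8 to 16 and in P25 minus E18 from 7 to 11, beside 9, 12 and 10. The 3 calls of stage 2 minus stage 1 became 5 with array weights and 5 without the 4 arrays high in epidermis markers, 0 with muscle, hair follicle and cartilage markers as covariates, 0 with epidermis and hair follicle markers as covariates, and 2 to 3 without single arrays. The 0 calls of stage 3 minus stage 2 became 3 with array weights and 0 to 1 without single arrays (1 without P9 replicate 1). The 6 calls of stage 4 minus stage 3 became 2 with the mesenchyme and fibroblast markers as a covariate and 4 to 7 without single arrays. The 2 calls over the adjacent steps became 1 with only the ages compared in the fit, and 1 to 2 without single arrays. The difference between the Sfrp2 probe sets in stage 4 minus stage 1 was -1.02 under quantile normalisation and -1.54 to -0.88 without single arrays. In stage 4 minus stage 3 it ran from -1.96 to -1.30. The cause was not tested.

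Signs reversed in 7 of 729 values for single probe sets. With epidermis and hair follicle markers as covariates, Lef1 1370138_at changed by -2.64 in stage 2 minus stage 1 and 0.19 in stage 4 minus stage 3, Lef1 1383785_at by -0.92 in stage 2 minus stage 1 and 0.14 in stage 3 minus stage 2, and Wnt5a by -1.03 in stage 2 minus stage 1. With muscle, hair follicle and cartilage markers Lef1 1370138_at changed by -1.11 in stage 2 minus stage 1, and with mesenchyme and fibroblast markers Tcf7l2 1392592_at by 0.12 in stage 4 minus stage 1. Of the rest, 653 kept direction and call, 51 lost the call and 18 gained it. Of 1674 values without single arrays, 1594 kept both, 58 lost the call, 22 gained it and none reversed.

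Nothing in the labels ties arrays of the same replicate number. The methods state separate litters for the samples of an age, and do not say whether arrays of different ages shared a litter. Deviations of same-numbered arrays from their age means correlated at -0.11 to 0.459, and 21 of 27 arrays, not all, were closest to their own number, a hint from the data and not from the design. With the numbers as a replicate block, 12 member probe sets passed the F test, 13 were called in stage 4 minus stage 1 and 5 in stage 4 minus stage 3, and the difference between the Sfrp2 probe sets in stage 4 minus stage 1 was -1.17. The block also brought Lef1 1383785_at in stage 4 minus stage 1 past the threshold (-1.48, adjusted p = 0.0265) and Tcf7l2 1394497_at in stage 4 minus stage 3 out of it (adjusted p = 0.0581).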
